A study of Caenorhabditis elegans with 4 samples.

Results

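The genes described here build the eggshell of Caenorhabditis elegans or carry the switch from oocyte to embryo at fertilization. They are egg-1, egg-2, egg-3, egg-4, egg-5, cbd-1, perm-2, perm-4, chs-1 and mbk-2, a list of 10 genes that was matched to the files by WormBase gene identifier. All 10 were found among the 20535 genes of each file. RNA of whole young adults was sequenced in 2 strains with 2 libraries each, labelled as biological replicates, and each library came from at least 200 animals. The control strain, VL749, carries the reporter transgene wwIs24, in which the acdh-1 promoter drives GFP and which is listed together with unc-119(ed3). The mutant strain, VL1080, carries the same transgene and the allele ww4 of mccc-1, a gene on chromosome IV for a subunit of methylcrotonyl-CoA carboxylase, an enzyme of leucine breakdown. The allele's lesion is not described in the labels, and each genotype is represented by a single strain. All animals, controls included, were synchronized by a 20 h arrest at the first larval stage, raised on agar plates (NGM) seeded with Comamonas aquatica DA1877 as food, and taken 70 h after hatching at 20 °C.

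The eggshell of the worm forms from the outside in within minutes of sperm entry. An outer vitelline layer surrounds the oocyte before fertilization, a chitin layer is then laid down beneath it, and a layer of chondroitin proteoglycans and a lipid-rich permeability barrier follow. Egg activation runs in parallel: the kinase MBK-2 leaves the oocyte cortex and marks maternal proteins for destruction, and pseudophosphatases of the EGG family hold it there until then. These RNAs are made in the germline and stored in oocytes, so in whole animals their level follows the number of oocytes as well as the RNA in each, and fewer cells and less RNA per cell cannot be told apart.

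The level unit is FPKM, a count of fragments scaled for transcript length and for how many fragments the library had mapped. The steps between the lowest values put the depth at about 11400000 to 11800000 fragments per library; this is an estimate, as the sources used here do not state depth. At that depth the values of the 10 genes rest on about 1030 to 20720 fragments each. Differences were tested as log2(FPKM + 1) with limma across 13091 genes that had at least 1 FPKM in at least 2 libraries, and p-values were adjusted over all of them by the Benjamini-Hochberg method. A fold change on this scale is written as a log2 fold change, mutant minus control. Whether the replicates came from separate cultures is not described, so p-values reflect only how far these libraries spread, and part of that spread may be technical. The RNA of mccc-1 itself measured 104.19 and 105.26 FPKM in controls and 100.43 and 100.33 FPKM in mutants. Summed major sperm protein RNA measured 11034 and 10562 FPKM in controls and 2819 and 4312 FPKM in mutants.

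All 10 genes had a higher mean in the mutant than in the control, and none passed the test. A log2 fold change above 0 was found for 55.6% of all tested genes. The median log2 fold change of the 10 was 0.44, beside 0.05 over all tested genes. Both mutant libraries lay above both control libraries for 8 of the 10, a pattern seen in 28.9% of all tested genes. The other two, perm-2 and perm-4, overlapped between the strains. By limma at an adjusted p under 0.05, 0 of 10 were called, where 8.36% of tested genes were called, 1.06% higher and 7.3% lower. With 1 replicate left out at a time, the median log2 fold change of the 10 ran from 0.32 without control replicate 2 to 0.56 without control replicate 1. At an unadjusted p under 0.05 by limma, 7 of 10 were higher, beside 8.16% of tested genes. The 10 genes were chosen with earlier results of these data known, and they shifted together between libraries. These shares are therefore given as description and not as a test of the list. All 10 genes were far above the filter for low values in every library, so no gene was left out of these counts.

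**Figure D1:**
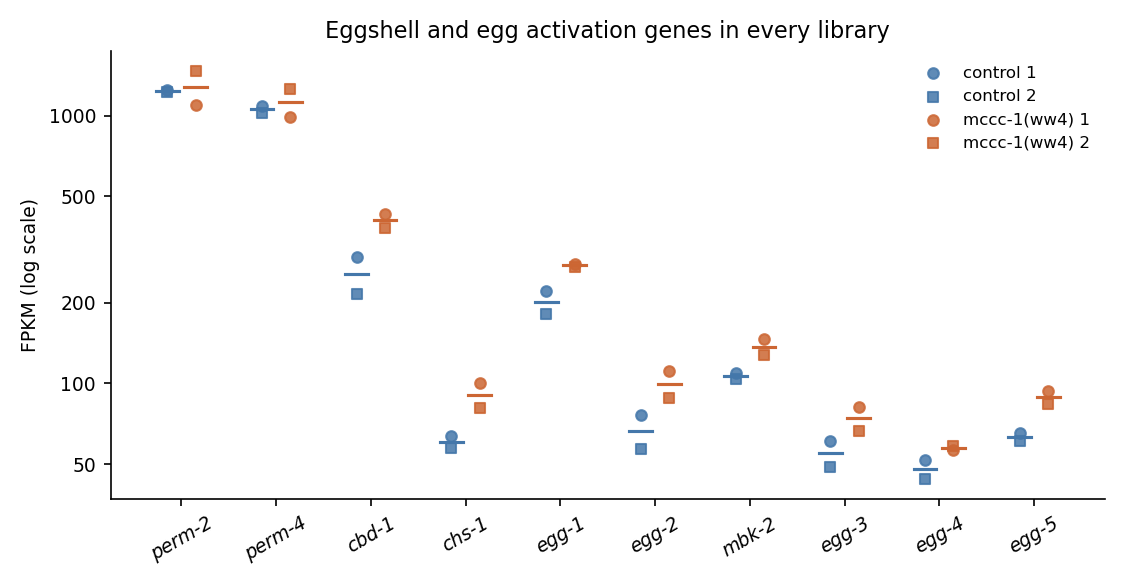
FPKM on a log axis for each of the 10 genes, with blue for control and orange for mccc-1(ww4) libraries, circles for replicate 1, squares for replicate 2 and short lines for the mean of 2. The orange points lie above the blue ones for 8 genes; for perm-2 and perm-4, the most abundant, the circle of the mutant lies below the control points and the square above them.

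The levels covered a wide range. In the control the highest mean, that of perm-2, was 25.8 times the lowest, that of egg-4, and in the mutant 22.4 times. The order in the control was perm-2, perm-4, cbd-1, egg-1, mbk-2, egg-2, egg-5, chs-1, egg-3 and egg-4. In the mutant chs-1 and egg-5 changed places, and the rest of the order was the same. Neighbours in this order were often not separable. In the control the ranges of cbd-1 and egg-1 overlapped, as did each neighbouring pair from egg-2 down to egg-4, while perm-2, perm-4, cbd-1 or egg-1, and mbk-2 stood apart from the next. In the mutant perm-2 and perm-4 overlapped, as did egg-2, chs-1 and egg-5. There egg-3 lay below egg-5 but overlapped chs-1, and egg-4 lay below egg-3. Levels are compared here per kilobase of transcript, as FPKM gives them.

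The vitelline layer held both the gene with the largest difference and the pair with the smallest. cbd-1 (WBGene00010351; chromosome IV, 11372991 to 11377627, forward strand, Ensembl annotation of WBcel235) encodes a protein with chitin-binding domains that joins the vitelline layer to the chitin beneath it. It measured 296.92 and 215.19 FPKM in controls and 430.43 and 381.39 FPKM in mutants. The controls lay apart from each other by more than the mutants did, and the groups did not overlap. Group means were 256 ± 57.8 and 406 ± 34.7 FPKM (SD, n = 2 each), 58.5% higher in the mutant, with a log2 fold change of 0.68 (SE 0.18, limma adjusted p = 0.0738). This was the largest of the 10 fold changes, at the 96.8th percentile of all tested genes. Control replicates moved this value in both directions: without control replicate 1 the log2 fold change was 0.91 and passed (limma adjusted p = 0.0191), and without control replicate 2 it was 0.45 (limma adjusted p = 0.384).

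perm-2 and perm-4 encode secreted proteins of the vitelline layer that are needed for the permeability barrier and that act together with CBD-1. perm-2 (WBGene00016636; chromosome IV, 1126790 to 1128865, forward strand) measured 1247.84 and 1224.32 FPKM in controls and 1096.02 and 1465.38 FPKM in mutants. The mutant libraries lay on either side of the controls. Group means were 1236 ± 16.6 and 1281 ± 261 FPKM (SD, n = 2 each), which gave a log2 fold change of 0.04, with a 95% limma interval from -0.42 to 0.49 (adjusted p = 0.94). perm-4 (WBGene00016638; chromosome IV, 1121494 to 1125107, reverse strand) measured 1088.55 and 1020.9 FPKM in controls and 991.69 and 1255.99 FPKM in mutants. Its means were 1055 ± 47.8 and 1124 ± 187 FPKM (SD, n = 2 each), which gave a log2 fold change of 0.08, with a 95% limma interval from -0.34 to 0.50 (adjusted p = 0.849). These intervals include changes as large as those of egg-1 or egg-5, so a like change of the pair is not shown to be absent.

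perm-2 and perm-4 are next to each other on chromosome IV, on opposite strands and pointing away from each other, with 1682 bp and no other protein-coding gene between them. Their levels moved together over the libraries. The ratio of perm-2 to perm-4 was 1.15 and 1.20 in controls and 1.11 and 1.17 in mutants, although the level of perm-2 was 0.748 times as high in mutant replicate 1 as in mutant replicate 2. For the other 8 genes this replicate ratio ran from 0.968 for egg-4 to 1.27 for egg-2. The split between the pair and the other genes was noticed in the values, so it is described without a test. Together the pair made up 71.2% and 74.5% of the summed FPKM of the 10 genes in controls and 61.6% and 70.1% in mutants. The ratio of perm-2 to cbd-1, whose proteins meet in the same layer, was 4.20 and 5.69 in controls and 2.55 and 3.84 in mutants. These genes had the smallest and the largest of the 10 fold changes, so the lower ratio restates that and is no separate result.

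**Figure D2:**
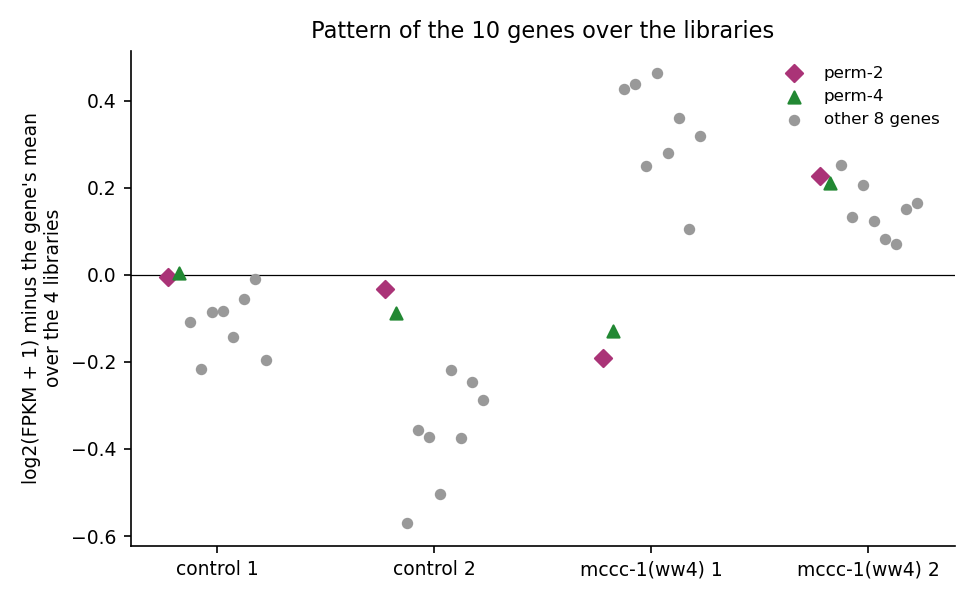
log2(FPKM + 1) of each gene minus that gene's mean over the 4 libraries, with diamonds for perm-2, triangles for perm-4 and grey circles for the other 8 genes. The grey points lie below 0 in both control libraries and above 0 in both mutant libraries, while perm-2 and perm-4 lie at -0.19 and -0.13 in mutant replicate 1 and at 0.23 and 0.21 in mutant replicate 2.

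chs-1 (WBGene00000496; chromosome I, 7554855 to 7559916, forward strand) encodes the chitin synthase that lays down the chitin layer of the eggshell. It measured 63.51 and 57.53 FPKM in controls and 100.51 and 81.1 FPKM in mutants. Both mutants lay above both controls. Group means were 60.5 ± 4.23 and 90.8 ± 13.7 FPKM (SD, n = 2 each), 50.04% higher in the mutant, with a log2 fold change of 0.57 (SE 0.15, limma adjusted p = 0.069). This was the lowest adjusted p of the 10. Without mutant replicate 2, the lower of the mutant libraries for this gene, it passed (log2 fold change 0.72, limma adjusted p = 0.0487). Without mutant replicate 1 it was 0.42 and without control replicate 2 it was 0.50 (limma adjusted p = 0.241 and 0.312).

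egg-1 and egg-2 encode transmembrane proteins of the oocyte surface with LDL-receptor repeats, which sperm need in order to fertilize the oocyte. egg-1 (WBGene00015083; chromosome III, 5728180 to 5730159, forward strand) measured 222.09 and 181.74 FPKM in controls and 280.24 and 272 FPKM in mutants. This gave a log2 fold change of 0.46 (SE 0.14, limma adjusted p = 0.113). egg-2 (WBGene00019811; chromosome III, 7058527 to 7060583, reverse strand) measured 76.19 and 56.67 FPKM in controls and 111.73 and 88.13 FPKM in mutants. For egg-2 this made a log2 fold change of 0.59 (SE 0.19, limma adjusted p = 0.125), which was 0.80 and passed without control replicate 1 (limma adjusted p = 0.0396). It was 0.38 without control replicate 2 and 0.42 without mutant replicate 1 (limma adjusted p = 0.531 and 0.388). Neither gene overlapped between the strains.

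The paired receptor genes are similar in sequence and could share reads, which the authors' quantification divides by a model, so their sum is the safer value. It was 298 and 238 FPKM in controls and 392 and 360 FPKM in mutants. Mean levels were 268 ± 42.3 and 376 ± 22.5 FPKM (SD, n = 2 each), a ratio of 1.401. egg-1 was the more abundant in every library, at 2.91 and 3.21 times the level of egg-2 in controls and 2.51 and 3.09 times in mutants. These ratios overlapped between the strains.

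mbk-2 (WBGene00003150; chromosome IV, 13009158 to 13035961, forward strand) encodes the DYRK-family kinase that drives the oocyte-to-embryo transition. It measured 108.95 and 103.45 FPKM in controls and 146.38 and 127.69 FPKM in mutants. Mean levels were 106 ± 3.89 and 137 ± 13.2 FPKM (SD, n = 2 each), 29.0% higher in the mutant, with a log2 fold change of 0.36 (SE 0.13, limma adjusted p = 0.156). The files list 20 transcripts for this gene and give 1 value for their total, so a difference between its isoforms could not be seen. mbk-1, its relative that has no known part in egg activation, measured 11.23 and 13.14 FPKM in controls and 10.19 and 12.55 FPKM in mutants, and overlapped between the strains.

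egg-3, egg-4 and egg-5 encode pseudophosphatases, proteins with the fold of tyrosine phosphatases that lack the catalytic activity. EGG-3 is the scaffold that keeps MBK-2 and chitin synthase at the oocyte cortex. egg-3 (WBGene00009701; chromosome II, 10882408 to 10884441, reverse strand) measured 60.93 and 48.63 FPKM in controls and 81.61 and 66.66 FPKM in mutants. The groups did not overlap, and the gap between them was smaller than the gap within either. The log2 fold change came to 0.43 (SE 0.17, limma adjusted p = 0.197), and it was 0.27 without control replicate 2 and 0.29 without mutant replicate 1 (limma adjusted p = 0.689 and 0.545).

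EGG-4 and EGG-5 bind the activated kinase MBK-2 and hold it inactive in the oocyte until the egg is activated. egg-5 (WBGene00020035; chromosome I, 4168984 to 4171589, reverse strand) measured 65.33 and 61.21 FPKM in controls and 93.73 and 84.09 FPKM in mutants. Mean levels were 63.3 ± 2.91 and 88.9 ± 6.82 FPKM (SD, n = 2 each), 40.5% higher in the mutant, with a log2 fold change of 0.48 (SE 0.13, limma adjusted p = 0.07). Its copy egg-4 (WBGene00020652; chromosome I, 3932210 to 3934813, forward strand) measured 51.97 and 44.02 FPKM in controls and 56.37 and 58.24 FPKM in mutants. The log2 fold change of egg-4 was 0.26, with a 95% limma interval from -0.07 to 0.58 (adjusted p = 0.355), the smallest among the 8 genes whose groups did not overlap, and without control replicate 2 it was 0.14 (limma adjusted p = 0.855).

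egg-4 and egg-5 are near-identical copies with 40 protein-coding genes between them, so the division of reads between them is uncertain. Their sum was 117 and 105 FPKM in controls and 150.1 and 142.3 FPKM in mutants, with means of 111 ± 8.54 and 146 ± 5.49 FPKM (SD, n = 2 each), a ratio of 1.31. egg-5 stood at 1.26 and 1.39 times egg-4 in controls and 1.66 and 1.44 times in mutants, and given the shared reads no difference between the copies is read from these ratios.

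**Figure D3:**
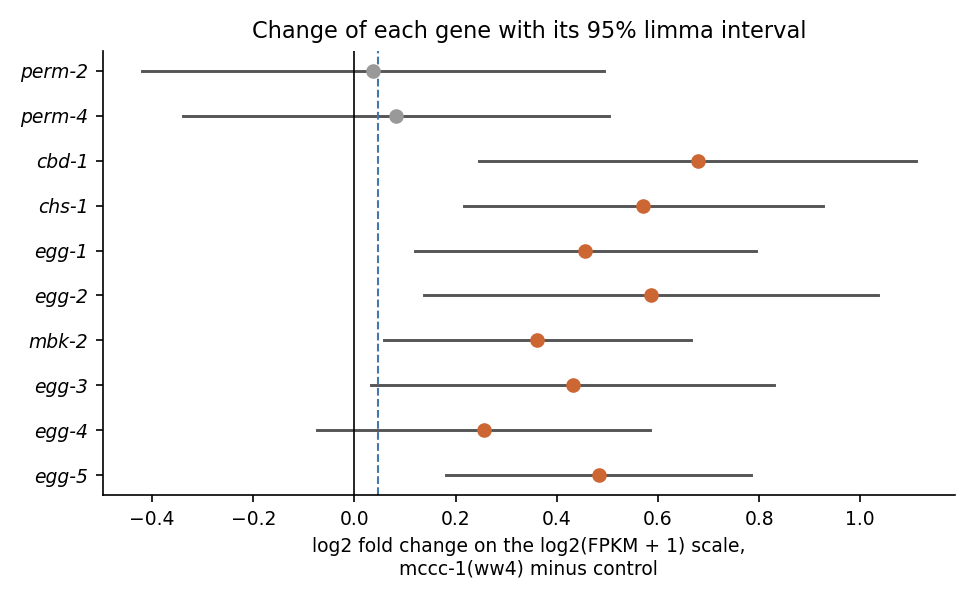
Log2 fold change of each gene on the log2(FPKM + 1) scale, mccc-1(ww4) minus control, with its 95% limma interval as a line, orange where mutant and control libraries did not overlap and grey where they did; the dashed line is the median of all tested genes, 0.05. The intervals of perm-2, perm-4 and egg-4 include 0; these intervals are not adjusted for the number of genes tested.

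The ratios between the partners of the activation complex were close in all libraries. The level of mbk-2 divided by the sum of its inhibitor genes egg-4 and egg-5 was 0.929 and 0.983 in controls and 0.975 and 0.897 in mutants. The level of mbk-2 divided by that of the scaffold gene egg-3 was 1.79 and 2.13 in controls and 1.79 and 1.92 in mutants. Both ratios overlapped between the strains. The level of chs-1 divided by that of egg-3 was 1.04 and 1.18 in controls and 1.23 and 1.22 in mutants, without overlap and by a narrow margin.

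The replicates of a strain also differed in these genes. All 10 had more RNA in replicate 1 of the control than in its replicate 2, beside 39.7% of all tested genes, and the ratio ran from 1.02 for perm-2 to 1.38 for cbd-1. In the mutant 7 of 10 were higher in replicate 1 than in replicate 2, beside 58% of all tested genes, and the exceptions were egg-4, perm-2 and perm-4. The sum of the 8 genes other than perm-2 and perm-4 was 946 and 768 FPKM in controls and 1301 and 1159 FPKM in mutants.

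Some of the 10 genes overlap other genes, and the strandedness of the libraries was not stated, so reads from such a stretch cannot be assigned to a strand. Of the protein-coding genes that overlap 1 of the 10 in the annotation, the longest shared exon sequence was 42 nt, between egg-1 and B0244.9 on the opposite strand, or 2.34% of the exons of egg-1. The largest share was 3.4% of the exons of perm-2, or 25 nt, shared with C44B12.6 on the opposite strand, which measured 1.75 and 0.84 FPKM in controls and 0.54 and 0.89 FPKM in mutants. B0244.9 measured 7.59 and 9.51 FPKM in controls and 0.29 and 1.58 FPKM in mutants. The overlapping gene with the highest level was T25G3.3, which shares 5 nt with chs-1 on the same strand and was at 87.79, 97.01, 103.96 and 78.71 FPKM in control replicates 1 and 2 and mutant replicates 1 and 2.

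Other oocyte genes stood higher by about as much on average. For 18 other oocyte genes, the mean log2(FPKM + 1) was 7.48 and 7.33 in controls and 7.83 and 7.73 in mutants, a difference of 0.38. For the 10 eggshell and activation genes it was 7.32 and 7.10 in controls and 7.64 and 7.57 in mutants, a difference of 0.39. Relative to the other oocyte genes, the 10 genes were therefore at -0.16 and -0.22 in controls and -0.19 and -0.16 in mutants, with overlap. Against the same reference the difference of single genes ran from -0.34 for perm-2 and -0.30 for perm-4 to 0.21 for egg-2 and 0.30 for cbd-1. The median log2 fold change of the 18 other oocyte genes was 0.43. Of them 2 rose, beside 1.06% of all tested genes, none fell and 16 did not pass. The 2 that rose were spn-4, for an RNA-binding protein of the early embryo, and puf-7, for an RNA-binding protein of the PUF family. Their log2 fold changes were 0.67 and 0.65 (limma adjusted p = 0.0403 and 0.0396). Both calls were lost without control replicate 2 (limma adjusted p = 0.263 and 0.232), mutant replicate 1 (0.142 and 0.148) or mutant replicate 2 (0.0767 and 0.0759). The most abundant of them, cey-2, cgh-1 and car-1, did not pass; their log2 fold changes were 0.22, 0.03 and 0.27.

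Of 16 other eggshell genes none passed in either direction. Their median log2 fold change was 0.34, and 11 of them had both mutant libraries above both controls, beside 28.9% of all tested genes. The gene that stood the other way was emb-8, for a reductase of lipid synthesis in the permeability barrier, with 104.85 and 139.74 FPKM in controls and 89.1 and 80.03 FPKM in mutants (log2 fold change -0.51, limma adjusted p = 0.127). cpg-1 and cpg-2, which encode the chondroitin proteoglycans of the inner eggshell, were higher by 0.65 and 0.49 on the log2 scale (limma adjusted p = 0.197 and 0.111), and cpg-3 by 0.30. Of 24 genes for partners of MBK-2 and the oocyte-to-embryo transition, 2 rose, beside 1.06% of all tested genes. None fell and 22 did not pass, with a median log2 fold change of 0.22. The cyclin B gene cyb-3 had a log2 fold change of 0.72 (limma adjusted p = 0.0423). mex-6, for a zinc-finger protein that sets up embryo polarity, had one of 0.59 (limma adjusted p = 0.043). Both calls were lost without control replicate 2 (0.254 for cyb-3 and 0.265 for mex-6), mutant replicate 1 (0.139 and 0.152) or mutant replicate 2 (0.0925 and 0.0605), and that of mex-6 also without control replicate 1 (0.0571). Its relative mex-5 stood at 0.47 and the casein kinase gene kin-19 at 0.02, and neither passed. None of the 5 genes of cortical granule traffic, which delivers the proteoglycans, passed (median 0.14), and the log2 fold changes were 0.14 for rab-11.1, 0.27 for rab-6.1 and 0.08 for ykt-6.

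Genes on the sperm side of fertilization stood the other way. Of 5 tested genes, 1 fell, beside 7.3% of all tested genes, and 4 did not pass. All 5 had both mutant libraries below both controls. For the 4 that did not pass, only the controls reached the filter of 1 FPKM, so the filter fixed that pattern for them. It can be read only for the gene that fell, and 23.2% of all tested genes showed it. spe-11, which encodes a sperm-supplied protein that egg activation requires, measured 53.88 and 69.82 FPKM in controls and 18.5 and 23.62 FPKM in mutants, a log2 fold change of -1.51 (SE 0.19, limma adjusted p = 0.0103). spe-9, for a sperm surface protein with EGF repeats that fertilization requires, measured 1.22 and 1.89 FPKM in controls and 0.42 and 0.41 FPKM in mutants, and spe-36 was at 1.67, 2.65, 0.33 and 0.57 FPKM. Neither passed. spe-41, for a sperm calcium channel that fertilization requires and that was counted among the sperm markers, measured 5.57 and 7.82 FPKM in controls and 2.97 and 3.53 FPKM in mutants and did not pass (log2 fold change -0.84, limma adjusted p = 0.11).

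Marker lists for other cells moved beside the 10 genes to different degrees. All 10 sperm markers were lower in both mutant libraries than in both controls, beside 23.2% of all tested genes. By limma 9 of them fell, beside 7.3% of all tested genes. Among the 9, peel-1 reached the filter of 1 FPKM only in the controls, so the filter fixed that pattern for it. It measured 4.23 and 5.88 FPKM in controls and 0.55 and 0.67 FPKM in mutants. The summed level of the 10 sperm markers was 1194 and 1166 FPKM in controls and 267 and 391 FPKM in mutants. Their part in the levels of the 10 genes was not tested. None of 8 markers of the germline outside oocyte growth passed, with a summed level of 579 and 589 FPKM in controls and 523 and 588 FPKM in mutants. Their median log2 fold change was -0.09, with 1 of the 8 above 0. Both mutant libraries lay below both controls for 3 of them, beside 23.2% of all tested genes. None of 8 markers of the gonadal sheath and spermatheca passed, with sums of 212 and 246 FPKM in controls and 219 and 206 FPKM in mutants. Of 8 early embryo markers 2 could be tested and none passed, and the other 6 were at or below 1.6 FPKM in every library. The sum of the 8 was 14.8 and 9.93 FPKM in controls and 17.1 and 12.3 FPKM in mutants. Most of it came from 1 of the tested markers, at 12.78 and 8.78 FPKM in controls and 12.61 and 8.56 FPKM in mutants. The sum therefore says little about the other markers, which lay near the floor. The 7 intestinal and 3 tested hypodermal markers had none that passed.

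**Figure D4:**
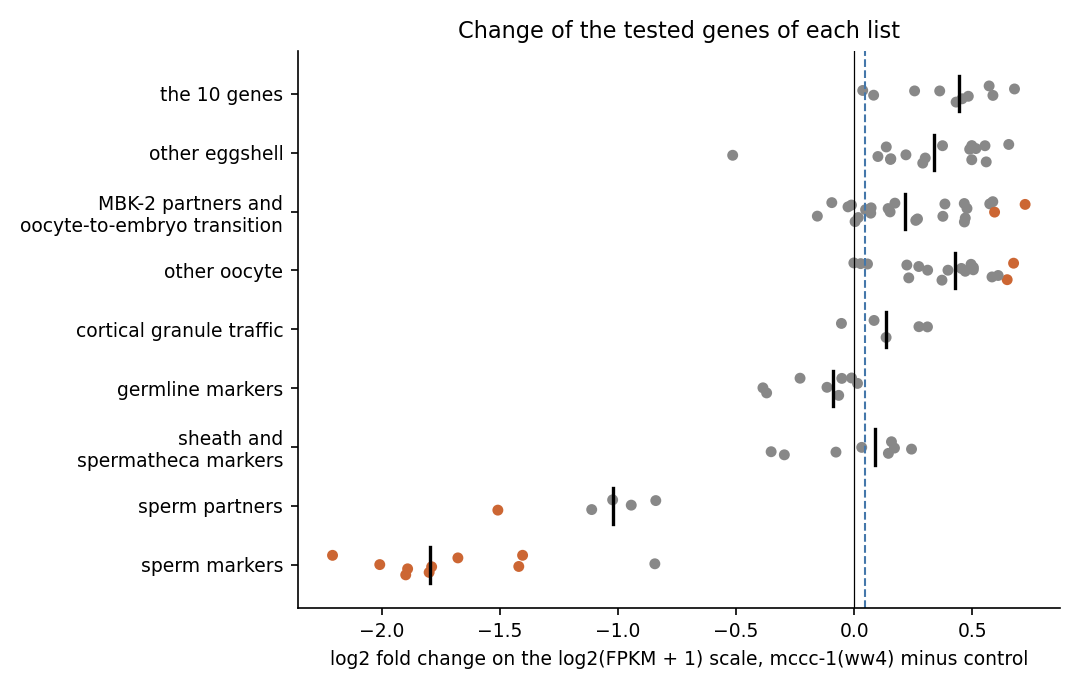
Log2 fold change on the log2(FPKM + 1) scale, mccc-1(ww4) minus control, of every tested gene of each list, orange where the limma adjusted p was under 0.05, with black bars for list medians and a dashed line for the median of all tested genes. The 10 genes and the other oocyte genes have medians of 0.44 and 0.43, and the sperm markers one of -1.79.

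Among 2308 other tested genes whose mean level lay within the range of the 10, the 5 whose values over the 4 libraries were nearest to the average pattern of the 10 were puf-3, plk-1, egg-6, skp-1 and gfat-2. The measure was the Euclidean distance of log2(FPKM + 1) values after taking off each gene's mean, and it ran from 0.0288 for puf-3 to 0.0456 for gfat-2, where that of egg-1, the nearest of the 10 themselves, was 0.0829. puf-3 encodes an RNA-binding protein of the PUF family and measured 150.51 and 132.26 FPKM in controls and 188.16 and 178.58 FPKM in mutants. plk-1 encodes polo-like kinase, and gfat-2 an enzyme of amino sugar synthesis. With 4 libraries as the only points, many genes can lie this near. perm-2 and perm-4 lay farthest from that average, at 0.515 and 0.435.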

How the data were processed

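FPKM values per gene were deposited by the authors, 1 file per library, with the unit taken from the file headers. Bowtie2 and RSEM are named in the submitters' processing notes; versions, build, annotation and strandedness were not stated there. RSEM divides reads among similar genes by a model. Samples were grouped by title, 2 per strain. The test was limma 3.58.1 (R 4.3.3) on log2(FPKM + 1) values, with group as the only term, a mean-variance trend, and 2 residual and 4.65 prior degrees of freedom. It ran across 13091 genes reaching 1 FPKM in 2 or more libraries. This filter was taken over from earlier work on these data in which the calls under several filters had been seen. The fit was also run on simulated data with independent normal noise of the fit's own variances. Those data hold no shifts shared between genes, so they do not test the fit against such shifts. Coordinates come from Ensembl release 115 (WBcel235), matched by gene identifier; it lists 14 mbk-2 transcripts where the files list 20. Depth was estimated from the spacing of values under 0.6 FPKM in genes of 950 to 1050 nt. Only spacings from 0.05 to 0.2 FPKM were searched, so a depth with a smaller spacing could not be found. Full transcript lengths were used for the depth and for the fragment numbers built on it. The 10 genes, the 5 gene lists and the marker lists were chosen with earlier results of these data known. All 10 genes are named. From each other gene list, genes that passed and the 3 with the highest mean level are named, with the 5 genes nearest in pattern. mbk-1, emb-8, B0244.9, C44B12.6 and T25G3.3 fall outside this rule, and from the marker lists only spe-41 and peel-1 are named. All of these were chosen after their values were seen. spe-13 and fer-14 did not match, trp-3 is an older name of spe-41, a sperm marker here, and 3 further sperm partners lay below the filter. In all, 14 alternatives were tried.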

Additional observations from a re-analysis of the deposited data

How the results depend on the processing

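For the 10 genes, 130 of 140 values under the 14 alternatives kept their direction and their side of the limma threshold, and the 8 genes other than perm-2 and perm-4 stayed above 0 in all 112 of theirs. The direction of perm-2 turned with upper-quartile scaling (log2 fold change -0.014), and without mutant replicate 2 those of perm-2 and perm-4 turned; with a replicate left out they ran from -0.17 to 0.25 and from -0.088 to 0.25. When libraries were rescaled without vitellogenins and major sperm proteins, 1 of the 10 genes was called (cbd-1, limma adjusted p = 0.0415). In that fit 9.59% of tested genes were called, 1.51% higher, beside 8.36% and 1.06% in the main fit. With the replicate number as a block 3 of the 10 were called (cbd-1, chs-1 and egg-2), where 13.8% of tested genes were called, 2.69% higher. The labels do not say that a number marks a batch. With only 2 numbers (r = 0.176 between same-numbered deviations across genes) the samples were not taken as paired. The cause of these shifts was not tested. Under that block 1 of the other eggshell genes was higher and 4 sperm partners were lower. Most of the tested sperm partners had passed the filter only through the controls. Left-out replicates gave 0 to 2 other eggshell genes higher and 0 to 1 lower, 0 to 2 MBK-2 partners higher and 0 to 4 other oocyte genes higher. MBK-2 partners called higher numbered 0 with a pseudocount of 0.1, with no filter, with a minimum of 0.1 FPKM and with median-of-ratios or upper-quartile scaling, and 1 with quantile normalization. Other oocyte genes called higher numbered 0 with no filter, with a minimum of 0.1 FPKM and with upper-quartile scaling, and 1 with median-of-ratios scaling or quantile normalization. The sperm partner call was lost (0) with no filter or a minimum of 0.1 FPKM, under which 4 genes were called in all. Depth is only estimated, and how far it limits these comparisons was not tested.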
